A study of Mus musculus with 5 samples.

Results

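The genes described here are 10 genes of the unfolded protein response and the integrated stress response, chosen by symbol: Atf4, Ddit3, Xbp1, Trib3, Chac1, Asns, Herpud1, Sel1l, Creld2 and Manf. All 10 were measured, each by 1 probe set, among 19938 genes with a symbol of their own on the array. Total RNA of whole mammary gland came from 8-week-old female FvB/N mice, with 1 whole-transcript Affymetrix array per mouse. The cyclin D1 group was 3 mice carrying both the MMTV-rtTA transgene and a cyclin D1 (CCND1) responder. The control group was 2 mice carrying MMTV-rtTA alone, so both groups carried the transactivator. rtTA switches on a tetracycline-responsive transgene in the presence of doxycycline, and the MMTV promoter that drives it is active mainly in mammary epithelium, so the other cells of the gland are not the intended site of induction. Per the treatment note in the labels, doxycycline was given for 7 days, but the note speaks of KE mutant mice and is silent on the controls. The study asked what acute cyclin D1 expression changes in the gland.

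The endoplasmic reticulum (ER) folds secreted and membrane proteins, and unfolded protein there sets off 3 sensors, PERK, IRE1 and ATF6. PERK phosphorylates the translation factor eIF2alpha, as do GCN2, PKR and HRI in the integrated stress response, and this raises translation of ATF4, a transcription factor for amino acid genes and for CHOP. IRE1 splices the mRNA of XBP1, which drives genes of ER folding, translocation and degradation. A lactating mammary cell secretes large amounts of protein and depends on this machinery, and XBP1 is known to be needed for the secretory mammary epithelium in mice. ATF4 translation and XBP1 splicing are not read by a probe set for total mRNA.

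Of the 10 genes, Sel1l alone passed the test, and its log2 expression was higher by 0.96 in cyclin D1 glands (SE 0.13, adjusted p = 0.0271 from limma, with Benjamini-Hochberg adjustment over all 19938 genes and a threshold of 0.05). Asns and Xbp1 had larger differences, of 2.75 and 1.51, with adjusted p-values of 0.0650 and 0.0564. Creld2, Manf and Herpud1 lay higher on all 3 cyclin D1 arrays than on both controls without passing. Atf4, Ddit3, Trib3 and Chac1 differed by -0.25 to 0.28, and their groups overlapped. The count of 1 higher gene in 10 stands beside 5.38% of all genes called higher, or 7.72% of the 6785 genes whose mean expression lay within the range of these 10. None of the 10 was called lower, where 0.687% of all genes were. At an unadjusted limma p under 0.05 there were 6 of the 10, beside 5244 of all 19938 genes. All 6 had positive differences as deposited. That of Manf was 0.59 as deposited and -0.68 after quantile normalization of the arrays.

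The arrays differed in ways that bear on every one of these values. The SD of log2 values across genes was 1.20 to 1.38 on the cyclin D1 arrays, against 0.735 and 0.926 on the controls. With genes ranked by mean expression, the median difference was -0.29 in the dimmest decile and 1.59 in the brightest. Across genes, Pearson's r was 0.955 to 0.962 between pairs of cyclin D1 arrays and 0.779 between the 2 controls. Control 2 correlated with the cyclin D1 arrays at 0.841 to 0.884 and control 1 at 0.701 to 0.743, so control 1 stood apart and control 2 was closer to the cyclin D1 arrays than to control 1. Values without control 1 are therefore given where they end a call or turn a sign. A second set of values was therefore computed after quantile normalization of the 5 arrays, called renormalized here, which gives all arrays the same distribution. The mean of 1027 olfactory receptor genes, taken as a rough floor of signal, was 1.97 to 2.24 on the cyclin D1 arrays and 2.52 and 2.38 on the controls. Ccnd1 had log2 values of 4.63, 4.92 and 4.005 on the cyclin D1 arrays and 4.04 and 3.49 on the controls (adjusted p = 0.218), and it is not known here whether its probe set reads the transgene. Its renormalized difference was -0.14, and its values overlapped between the labelled groups.

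**Figure D1:**
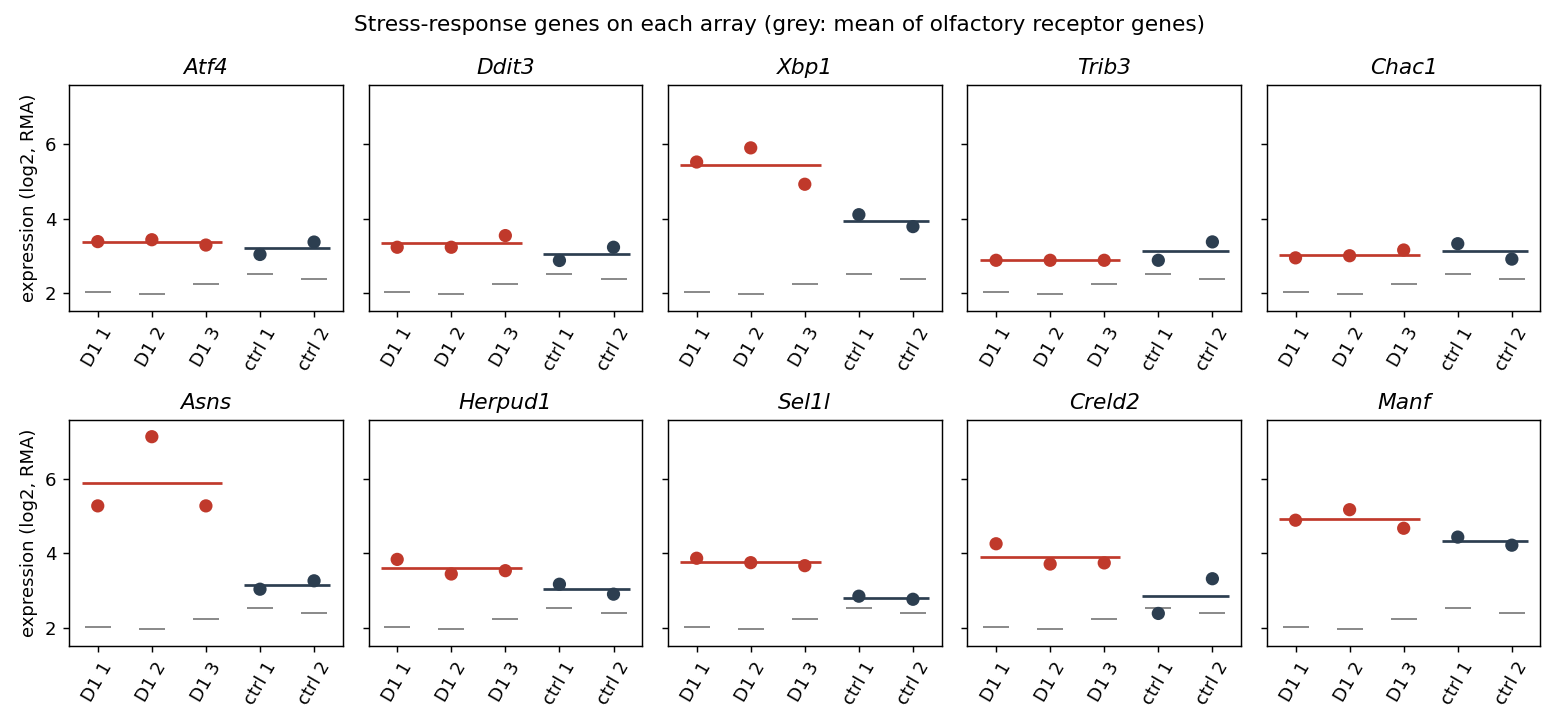
Log2 expression (vertical axis, RMA values) of the 10 genes on each array, with cyclin D1 glands in red and control glands in dark blue, group means as lines and the olfactory receptor floor of each array as grey ticks. Asns, Xbp1 and Sel1l stand apart between groups, Atf4, Ddit3, Trib3 and Chac1 overlap, and Creld2 on control 1, at 2.38, is the value that lies below the tick.

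Among the regulators, Atf4 encodes the transcription factor of the integrated stress response. Its log2 expression was 3.38, 3.43 and 3.29 in the cyclin D1 glands, against 3.04 and 3.37 in the controls. Control 2 stood inside the cyclin D1 values, so the groups overlapped. The difference was 0.16 (95% interval -0.23 to 0.56, adjusted p = 0.528), and -0.0022 without control 1. The upper bound of the interval is a 1.48-fold higher level in cyclin D1 glands.

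Ddit3 encodes CHOP, a transcription factor induced downstream of ATF4 and linked to cell death under lasting ER stress. It read 3.23, 3.23 and 3.54 in the cyclin D1 glands and 2.87 and 3.23 in the controls. The first and second cyclin D1 arrays and control 2 held the same value to 4 decimals, which leaves these arrays without an order. The difference was 0.28 (95% interval -0.18 to 0.75, adjusted p = 0.375).

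Trib3 encodes a pseudokinase induced by ATF4 and CHOP that restrains ATF4. All 3 cyclin D1 arrays and control 1 had the same value, 2.88, to 4 decimals, and control 2 read 3.37. The SD of 0 in the cyclin D1 group thus comes from tied values, and the difference of -0.25 (SE 0.18, adjusted p = 0.423) rests on control 2 alone. Without control 2 it was 0. Such ties occurred between at least a pair of arrays in 3974 of the 19938 genes. RMA summarises a probe set by repeated medians over probes and arrays, a procedure that can return identical values.

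Chac1 encodes an enzyme that degrades glutathione and is a target of ATF4. It read 2.94, 3.00 and 3.16 in the cyclin D1 glands, against 3.33 and 2.91 in the controls. The controls lay on both sides of the cyclin D1 glands. The difference of -0.08 (95% interval -0.53 to 0.36, adjusted p = 0.785) was 0.12 without control 1.

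Asns encodes asparagine synthetase, which makes asparagine from aspartate and glutamine and is among the best known targets of ATF4. Its log2 expression was 5.28, 7.14 and 5.28 in the cyclin D1 glands, against 3.04 and 3.26 in the controls. Every cyclin D1 value lay above both controls by more than 2 log2 units, and cyclin D1 replicate 2 stood above the other two, which were tied. Expression was 5.90 ± 1.08 in cyclin D1 glands (SD, n = 3) and 3.15 ± 0.16 in controls (SD, n = 2), a 6.73-fold difference (95% interval 2.31 to 19.6) that did not pass over all genes. The controls lay 0.51 and 0.88 above the floor of their arrays, so the size of the difference is inexact. Renormalized, the difference was 2.17 (95% interval 1.00 to 3.34, adjusted p = 0.0983).

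The promoters of these ATF4 targets are shown because all 3 hold the same motif, while their values in the glands differ. Each is the RefSeq sequence from 250 bases before to 50 after the start site (GRCm38.p6), on the gene's strand, 5′ to 3′. A C/EBP-ATF response element (CARE, TGATGNAA on either strand), through which ATF4 acts with a C/EBP partner, is in capitals. The Asns promoter lies at chr6:7693160-7693459, minus strand, with its match at bases 228 to 235 of the window.
Asns: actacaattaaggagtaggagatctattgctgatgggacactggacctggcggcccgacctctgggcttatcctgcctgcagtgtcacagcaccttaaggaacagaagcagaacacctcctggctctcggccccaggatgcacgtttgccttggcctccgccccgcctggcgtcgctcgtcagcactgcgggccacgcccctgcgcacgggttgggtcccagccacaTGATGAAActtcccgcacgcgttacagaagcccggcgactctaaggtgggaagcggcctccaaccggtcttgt
The Chac1 promoter lies at chr2:119350992-119351291, plus strand, with its match at bases 58 to 65.
Chac1: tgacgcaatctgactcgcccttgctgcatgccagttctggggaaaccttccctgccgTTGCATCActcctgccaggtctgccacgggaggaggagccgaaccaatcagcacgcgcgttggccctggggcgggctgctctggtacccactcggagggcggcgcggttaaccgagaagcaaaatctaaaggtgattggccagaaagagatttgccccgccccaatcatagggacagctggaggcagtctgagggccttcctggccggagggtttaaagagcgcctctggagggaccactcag
The Trib3 promoter lies at chr2:152344011-152344310, minus strand, with its match at bases 265 to 272, after the start site.
Trib3: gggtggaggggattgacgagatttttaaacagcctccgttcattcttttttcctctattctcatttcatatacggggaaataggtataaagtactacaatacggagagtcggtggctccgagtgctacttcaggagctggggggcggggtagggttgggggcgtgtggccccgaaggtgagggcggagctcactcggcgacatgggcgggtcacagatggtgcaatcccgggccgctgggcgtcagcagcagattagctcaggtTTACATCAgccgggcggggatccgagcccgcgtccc
A match to CARE was found in 4 of the 9 promoters that the table holds for these genes, the 3 above and Herpud1, and in 3.97% of all 32851 promoters of 27025 genes. The 3 genes shown share the motif, yet Asns differed by 2.75 and Trib3 and Chac1 by -0.25 and -0.08 on the log2 scale. The same letters in a promoter do not show that ATF4 binds there.

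Xbp1 encodes the transcription factor of the IRE1 arm. It read 5.52, 5.91 and 4.93 in the cyclin D1 glands, against 4.11 and 3.79 in the controls. All cyclin D1 values lay above both controls, with cyclin D1 replicate 3 the nearest to them. The means were 5.45 ± 0.49 in cyclin D1 glands (SD, n = 3) and 3.95 ± 0.23 in controls (SD, n = 2), a 2.84-fold difference (95% interval 1.65 to 4.90). The value depended on the array scale. Xbp1 lay in the brightest decile, whose median gene differed by 1.59. Within each array Xbp1 stood at the 93.3rd, 94.4th and 91.5th percentile of genes in the cyclin D1 glands and at the 94.6th and 85.4th in the controls, which overlap. The renormalized difference was 0.32 (95% interval -0.60 to 1.25, adjusted p = 0.653), and 1.02 with control 1 also left out.

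Sel1l encodes the adaptor that holds the ubiquitin ligase HRD1 in the ER membrane, the core of ER-associated degradation, in which misfolded proteins are drawn into the cytosol and destroyed. It read 3.87, 3.75 and 3.67 in the cyclin D1 glands, against 2.85 and 2.76 in the controls. The replicates were tight in both groups, and the gap between the groups was wider than the range within either. The means of 3.76 ± 0.10 (SD, n = 3) and 2.81 ± 0.06 (SD, n = 2) gave a 1.94-fold difference (95% interval 1.53 to 2.46). The controls lay 0.33 and 0.38 above the floor of their arrays, so the control level is close to the limit of what the arrays resolve. Within the arrays Sel1l stood at the 80.7th, 77.6th and 78.2nd percentile in cyclin D1 glands and at the 52.1st and 45.9th in controls, so the groups were apart on this scale too. The renormalized difference was 0.87 (95% interval 0.52 to 1.22) and missed the threshold at an adjusted p = 0.0630. Left out in turn, control 1 and each of the cyclin D1 arrays also ended the call, with differences of 0.90 to 1.00 and adjusted p-values of 0.0654 to 0.127. The difference of Sel1l was 0.92 without control 2, and 1.01 on the renormalized scale without control 1. With 1 control left, the spread comes from the cyclin D1 arrays alone, and the control is assumed to vary like them. Without control 1, and without cyclin D1 replicates 1 or 2, 0 genes on the array passed limma, with 4973, 3568 and 3491 at an unadjusted p under 0.05.

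Herpud1 encodes an ER membrane protein that brings together the degradation complex of HRD1. It read 3.84, 3.44 and 3.53 in the cyclin D1 glands, against 3.17 and 2.90 in the controls. The groups did not overlap, and the nearest values were cyclin D1 replicate 2 and control 1. The difference was 0.57 (95% interval 0.11 to 1.03, adjusted p = 0.129), and 0.44 after renormalization (95% interval -0.06 to 0.94).

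Creld2 encodes a disulfide-rich protein of the ER lumen and is a marker of the response in mouse cells. It read 4.26, 3.71 and 3.74 in the cyclin D1 glands, against 2.38 and 3.32 in the controls. The groups did not overlap, but the 2 controls differed by 0.93, nearly as much as the groups. Control 1 lay below the floor of its array, so the difference of 1.05 (95% interval 0.22 to 1.89, adjusted p = 0.127) is inexact. It was 0.59 without control 1 and 1.52 without control 2.

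Manf encodes a small protein of the ER lumen that is secreted when ER calcium falls and protects cells under stress. It read 4.89, 5.18 and 4.68 in the cyclin D1 glands, against 4.44 and 4.22 in the controls. As deposited all cyclin D1 values were above both controls, with a difference of 0.59 (95% interval 0.10 to 1.07, adjusted p = 0.137). Within the arrays the order was the opposite: Manf stood at the 89.8th, 90.5th and 89.9th percentile in cyclin D1 glands and at the 96.7th and 91.5th in controls. The renormalized difference was -0.68 (95% interval -1.45 to 0.08, adjusted p = 0.309). No direction is given for Manf for this reason.

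Promoters of the ER genes are shown for the elements that XBP1 and ATF6 are known to bind. The ER stress response element (ERSE) is CCAAT and CCACG with 9 bases between them, and ERSE-II is ATTGG and CCACG with 1 base between them. The unfolded protein response element (UPRE) was searched as TGACGTGG, and all were searched on both strands. Matches, with that of CARE, are in capitals. The Creld2 promoter lies at chr15:88819396-88819695, plus strand, with an ERSE on the minus strand at bases 125 to 143.
Creld2: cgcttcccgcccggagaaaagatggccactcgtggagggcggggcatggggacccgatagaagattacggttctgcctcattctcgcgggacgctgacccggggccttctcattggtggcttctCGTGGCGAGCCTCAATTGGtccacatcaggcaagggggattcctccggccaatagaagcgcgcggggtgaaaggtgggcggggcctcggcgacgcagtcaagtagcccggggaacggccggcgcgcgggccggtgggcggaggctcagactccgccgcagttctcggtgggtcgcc
The Herpud1 promoter lies at chr8:94386179-94386478, plus strand, with a CARE on the minus strand at bases 139 to 146 and an ERSE-II on the plus strand at bases 199 to 209.
Herpud1: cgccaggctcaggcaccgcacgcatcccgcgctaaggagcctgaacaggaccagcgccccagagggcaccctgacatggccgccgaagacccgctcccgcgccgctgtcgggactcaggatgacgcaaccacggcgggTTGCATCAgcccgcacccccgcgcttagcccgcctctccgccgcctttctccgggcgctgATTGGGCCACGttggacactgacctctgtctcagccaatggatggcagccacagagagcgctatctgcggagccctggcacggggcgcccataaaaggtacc
The Sel1l promoter lies at chr12:91849108-91849407, minus strand, and held no match to these 4 elements.
Sel1l: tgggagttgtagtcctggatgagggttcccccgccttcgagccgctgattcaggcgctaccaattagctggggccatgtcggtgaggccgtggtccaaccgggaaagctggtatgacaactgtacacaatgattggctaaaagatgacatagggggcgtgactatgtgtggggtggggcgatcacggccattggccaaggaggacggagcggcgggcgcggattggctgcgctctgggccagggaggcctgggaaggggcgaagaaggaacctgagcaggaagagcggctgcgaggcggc
The ERSE occurred in 0.119% of all promoters, ERSE-II in 0.0365% and the UPRE in 0.676%. CCACG by itself, which lies in both ERSE forms and on the other strand of the UPRE, occurred in 6 of the 9 promoters, Sel1l among them, and in 32.8% of all promoters. No match says only that these letters are not in this window, and the windows of Xbp1, Ddit3 and Atf4 held none of the 4 elements.

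**Figure D2:**
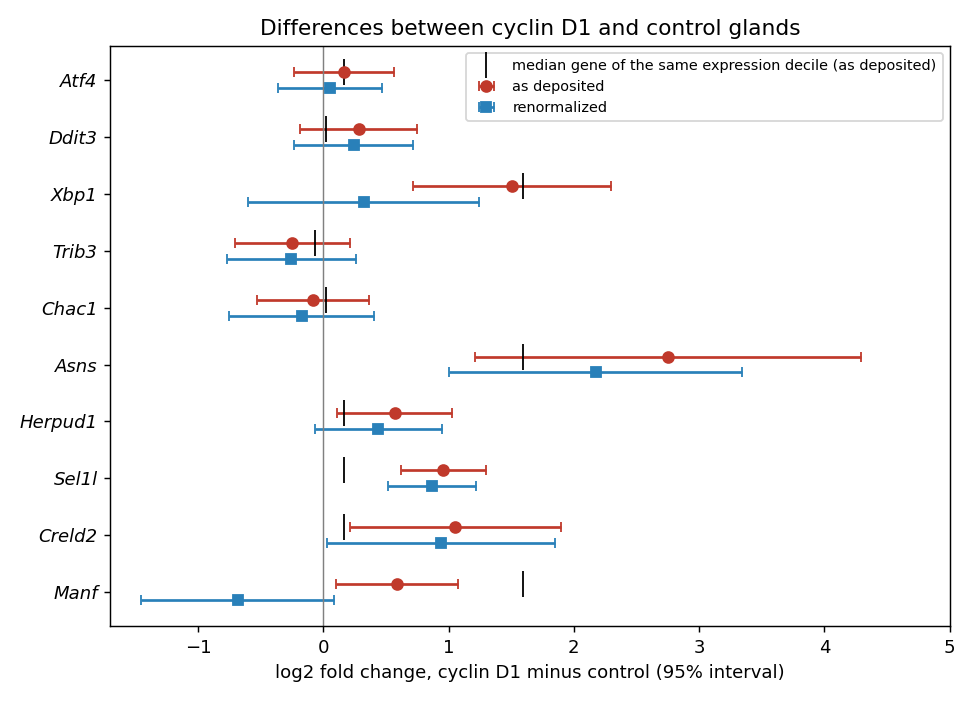
Log2 fold change, cyclin D1 minus control, with its 95% interval from limma for each gene, as deposited (red circles) and renormalized (blue squares); black bars mark the median gene of the same decile of mean expression. Sel1l moves little between the scales (0.96 and 0.87), Xbp1 much (1.51 and 0.32), and Manf changes sign (0.59 and -0.68).

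The median difference of the 10 genes was 0.58 and that of all genes -0.05, and after renormalization 0.28 and -0.02. The 10 genes were brighter than most, with 4 in decile 8 of mean expression and 3 in decile 10. The median genes of these deciles differed by 0.17 and 1.59 as deposited, and by -0.06 and 0.36 after renormalization. On the renormalized scale none of the 10 passed, where 0.256% of all genes were higher and 0.105% lower. An unadjusted limma p under 0.05 was found there for 3 of the 10, beside 3736 of all 19938 genes. In 6 of the 10 genes all cyclin D1 values lay above both controls, against 22.4% of all genes, and in 0 they lay below both, against 22.6%. By percentile within the array, Asns, Herpud1, Sel1l and Creld2 were higher in all cyclin D1 glands, against 20.1% of all genes, and Manf was lower, against 19.5%. A percentile within an array does not depend on the range of that array's values, but it does not remove other differences between the arrays.

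**Figure D3:**
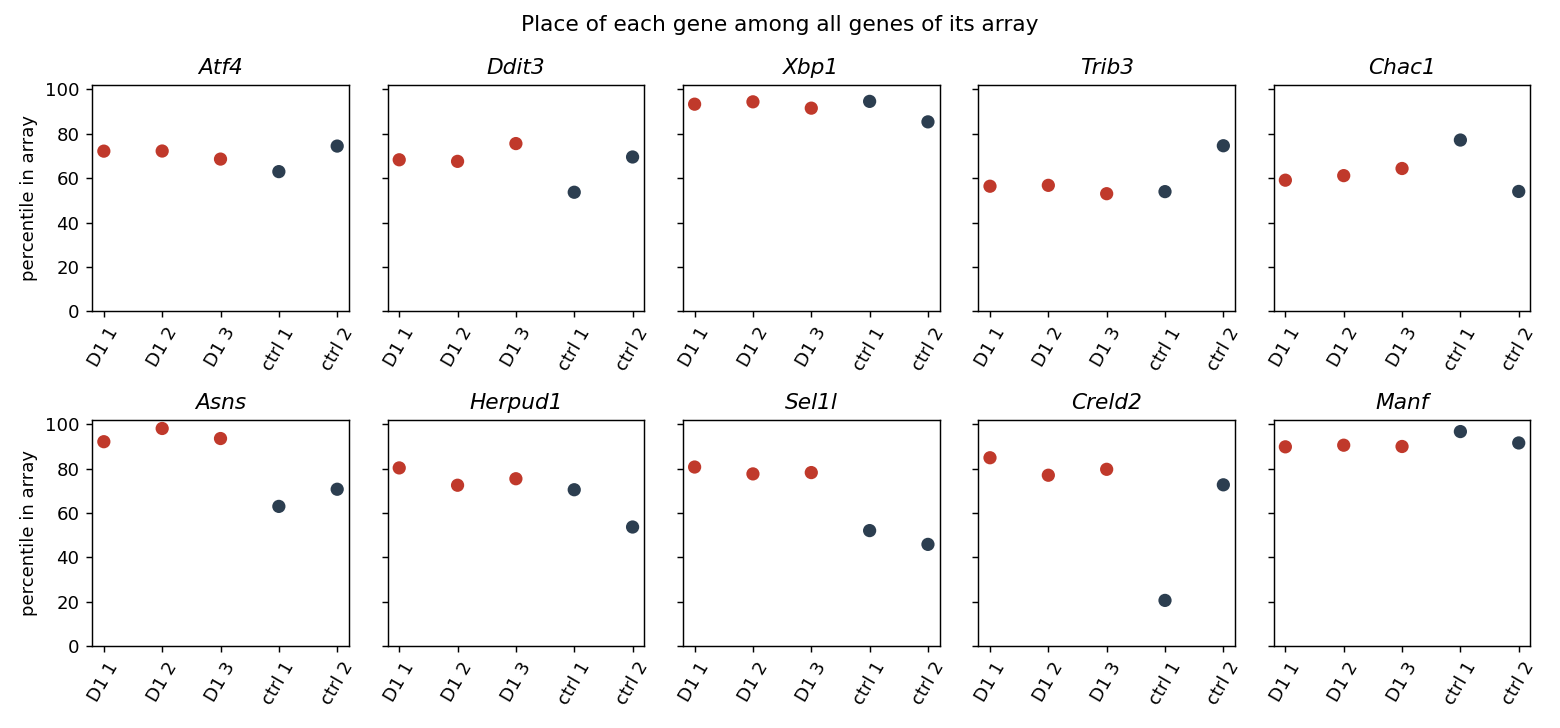
Percentile of each gene among the 19938 genes of the same array (vertical axis), with cyclin D1 glands in red and controls in dark blue. Sel1l and Asns are separated by wide gaps (Sel1l 77.6 to 80.7 in cyclin D1 glands, 45.9 and 52.1 in controls), whereas Xbp1 overlaps and Manf lies lower in cyclin D1 glands.

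The deciles rest on the mean of all 5 arrays, so a gene that is high in cyclin D1 glands can enter a brighter decile through that group. Asns, for example, stood at the 92.1st, 98.0th and 93.5th percentile in cyclin D1 glands and at the 63.0th and 70.7th in controls, and lay in the brightest decile. The place of a gene within its decile is thus not independent of its difference, and the deciles are shown as a description of the arrays. In log2 values centred on each gene's mean, Atf4 and Ddit3 were the pair with the most similar profile over the 5 arrays, with a root-mean-square difference of 0.17, and Trib3 and Asns the least similar, with 1.62.

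**Figure D4:**
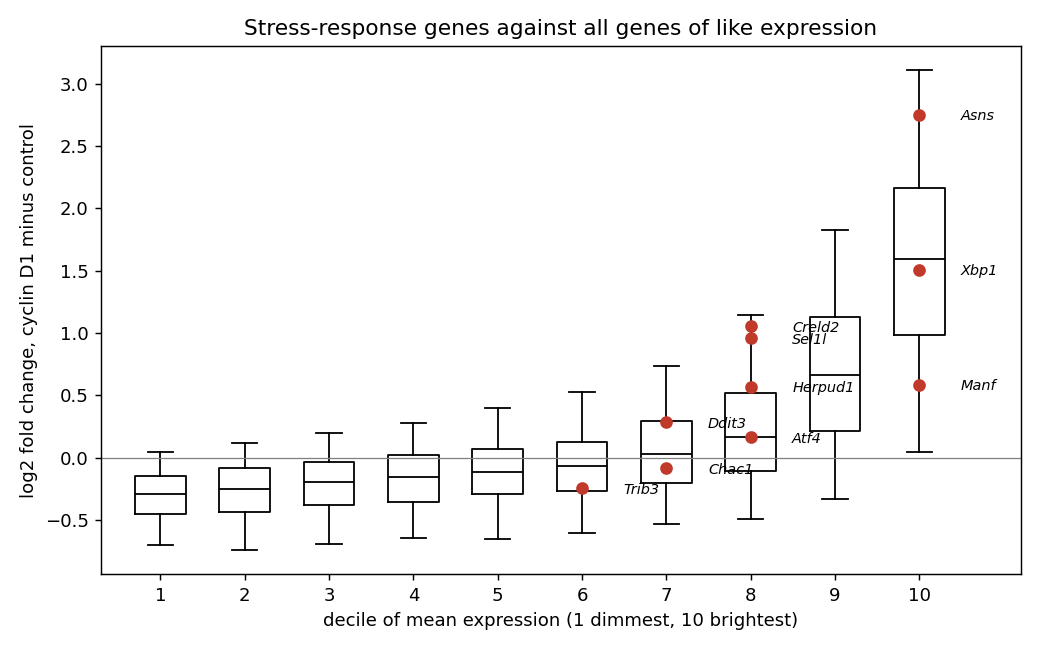
Log2 fold change, cyclin D1 minus control, of all genes by decile of mean expression (boxes from the lower to the upper quartile, line at the median, whiskers at the 5th and 95th percentile), with the 10 genes as red points. The median of the boxes climbs with brightness to 1.59 in the brightest decile. Genes were placed by the mean of all 5 arrays, 3 of them of cyclin D1 glands.

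The genes with profiles most like Xbp1 and Atf4 were taken from all genes on the array. The 3 genes closest to Xbp1 over the 5 arrays were Capns1, the small subunit of the calpain proteases, Prdx3, a mitochondrial peroxiredoxin, and Rnf113a2, with root-mean-square differences of 0.065, 0.067 and 0.083. Closest to Atf4 were Vps33a of the lysosomal tethering complex, Ghrl, which encodes ghrelin, and Zbtb34, at 0.024, 0.030 and 0.031. With 5 arrays that differ in range, this likeness is a description only.

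The other genes of the response were grouped in 8 lists by arm. In the IRE1 and XBP1 arm 7 of 15 measured genes rose and 0 fell. Over all genes 5.38% were called higher and 0.687% lower, and in the brightest decile 36.0% were higher. The median difference of the list was 1.49, against -0.05 over all genes. Of the 15 genes, 11 lay in deciles 9 and 10 of mean expression, whose median genes differed by 0.67 and 1.59. Dnajc3, an inhibitor of PERK and cochaperone of the ER lumen, read 8.02, 8.22 and 7.99 in the cyclin D1 glands, against 5.43 and 5.83 in the controls. It rose by 2.45 (SE 0.18, adjusted p = 0.0147), with no overlap, and its renormalized difference of 0.64 did not pass (adjusted p = 0.209). Sec61b, a subunit of the translocation channel, rose by 1.62 (adjusted p = 0.0258), with 0.33 after renormalization and groups that overlapped by percentile. Edem3, which trims mannose from misfolded glycoproteins, rose by 1.94 (adjusted p = 0.0264), with a renormalized 1.25. The sensor gene Ern1 (IRE1) itself differed by 0.02. Renormalized, 0 of the 15 passed, with a median of 0.69. An unadjusted limma p under 0.05 was found there for 9, beside 3736 of all 19938 genes.

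In the ATF6 arm 2 of 12 rose and 0 fell, with a median of 1.00. For this and the 2 lists that follow, 5.38% of all genes and 36.0% of those in the brightest decile were called higher. Atf6, the sensor, rose by 1.76 (SE 0.18, adjusted p = 0.0168), with 1.27 after renormalization. Hspa5, which encodes BiP, the main chaperone of the ER, had values of 7.38, 7.96 and 6.98 in the cyclin D1 glands, against 3.96 and 5.07 in the controls. It rose by 2.93 (SE 0.43, adjusted p = 0.0293), and its renormalized difference of 1.43 did not pass (adjusted p = 0.0969). Canx, which encodes the lectin chaperone calnexin, differed by 2.47 without passing (adjusted p = 0.0630), with 0.78 after renormalization. Of 14 folding and disulfide enzymes 4 rose, among them Ero1a, an oxidase that renews protein disulfide isomerase, by 1.64, Pdia3 by 1.56 and P4hb by 2.61. Their renormalized differences were 0.87, 0.06 and 1.57. Of 18 other genes of ER-associated degradation 2 rose, Edem3 and Ufd1, and Ufd1, a cofactor of the extracting ATPase VCP, by 2.50 (SE 0.28, adjusted p = 0.0184), with 1.95 after renormalization. Erlec1, a lectin of the same pathway, differed by 1.61 (adjusted p = 0.0599), with 0.59 after renormalization. The medians of the ATF6, folding and degradation lists were 0.49, 0.15 and 0.54 after renormalization, and 0 of their genes passed there. An unadjusted limma p under 0.05 was found for 5, 5 and 7, beside 3736 of all 19938 genes.

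In the PERK and ATF4 arm 2 of 15 rose and 0 fell, with a median of 0.27 as deposited and 0.14 after renormalization. Nupr1, a stress-induced nuclear protein, rose by 1.72 (SE 0.31, adjusted p = 0.0427, renormalized 1.29) and Gars, the glycyl-tRNA synthetase gene, by 1.23 (adjusted p = 0.0484, renormalized 0.15). Cebpg, a dimer partner of ATF4, differed by 1.25 (adjusted p = 0.0542, renormalized 0.02). Of 13 amino acid genes of the ATF4 response 0 passed limma, with 3 at an unadjusted p under 0.05 and a median of 0.07, or -0.10 after renormalization. Slc3a2, the heavy chain of amino acid exchangers, differed by 1.45, Psat1 of serine synthesis by 0.90 and the leucine transporter gene Slc7a5 by 0.86, the last with -0.52 after renormalization. Both control values of Psat1 lay at or below the floor, so its difference is inexact. Beside them, Asns differed by 2.75, and Slc3a2 had the largest difference of the 13.

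Of the other eIF2alpha kinases 0 of 3 passed limma, with 2 at an unadjusted p under 0.05 and a median of 0.81, or 0.27 after renormalization. Eif2ak2 (PKR) differed by 2.12, Eif2ak1 (HRI) by 0.81 and Eif2ak4 (GCN2) by 0.11. Like Asns, Eif2ak2 read highest on cyclin D1 replicate 2, at 6.49, against 5.06 and 4.87 on the other cyclin D1 arrays and 3.27 and 3.45 on the controls. Of 11 death genes of ER stress 1 rose, Ero1a again, with a list median of 0.29 as deposited and 0.23 after renormalization. Casp12, an ER-linked caspase in mice, read 3.96 to 4.75 in cyclin D1 glands and 3.22 and 3.19 in controls (adjusted p = 0.0689). Pmaip1, which encodes the death protein NOXA, differed by 0.46. In each of the 8 lists 0 genes fell, and some lists share Ero1a, Edem1, Edem2, Edem3 and Pdia4. The counts of higher genes stand beside 5.38% of all genes, and beside 36.0% in the brightest decile, which held different shares of the lists. Those at an unadjusted limma p under 0.05 stand beside 5244 of 19938 genes as deposited and 3736 after renormalization. Within that decile 6 of 7 genes rose in the IRE1 and XBP1 arm, 3 of 4 among folding enzymes, 1 of 4 in the ATF6 arm and 2 of 7 in degradation. In the PERK and ATF4 arm 1 of 3 rose there, among death genes 1 of 1, and among amino acid genes and kinases 0 of 1 each. Some of these genes are in that decile through their cyclin D1 values. The count there was no higher than the share of the decile in the ATF6, degradation, PERK and ATF4, amino acid and kinase lists. No test compared one list with another or with the rest of the array.

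**Figure D5:**
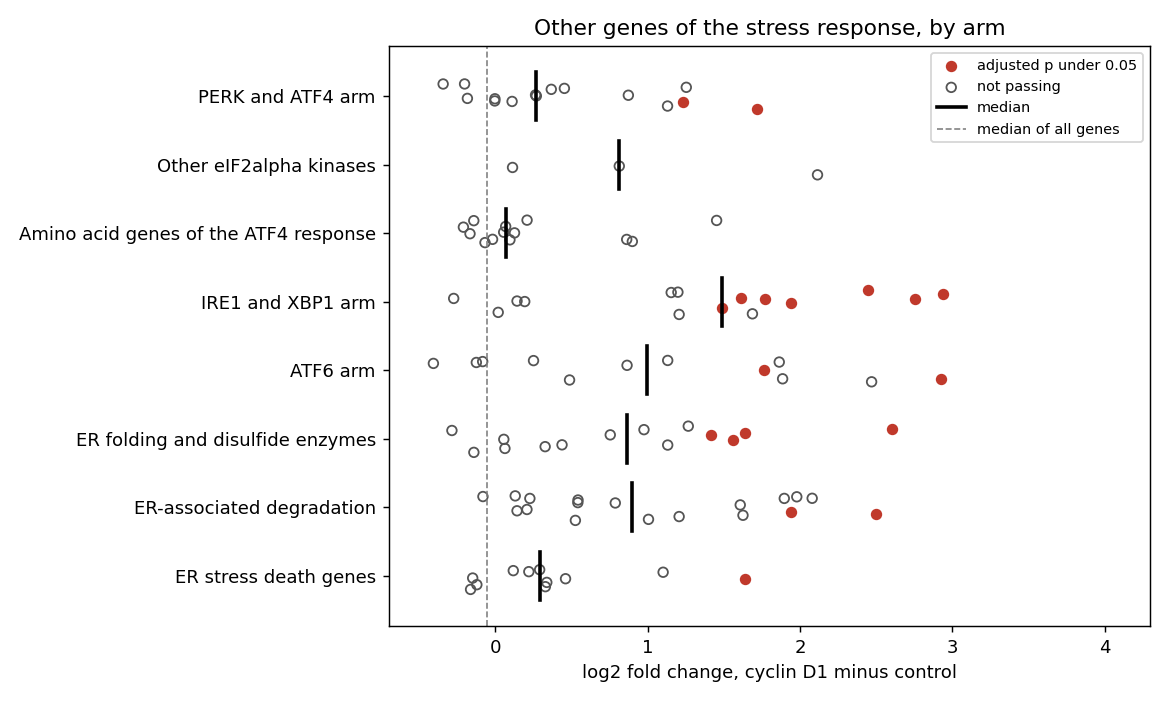
Log2 fold change, cyclin D1 minus control, of the other stress-response genes by list, filled where the limma adjusted p was under 0.05, with list medians as black bars and the median of all genes dashed. The IRE1 and XBP1 list has the most filled points (7 of 15, median 1.49), and the amino acid list has none (median 0.07).

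Markers of cell types were read in the same way. Their counts of higher genes stand beside 5.38% of all genes, and beside 36.0% in the brightest decile. Of 11 genes of secretory alveolar epithelium 8 rose and 0 fell, and their mean log2 level was 8.94 to 9.54 in the cyclin D1 glands, against 6.25 and 7.02 in the controls. All 11 lay in the brightest decile. After renormalization 1 of them passed, beside 0.256% of all genes called higher, and their median difference was 1.14. The milk protein genes were thus present in all glands, with Csn2 at 11.4 to 12.1 in the cyclin D1 glands and 10.4 and 11.3 in the controls. The reason for this level in the controls was not tested. Of 9 luminal markers 2 rose, with means of 4.21 to 4.49 in the cyclin D1 glands and 3.73 and 3.46 in the controls, and their median difference of 0.67 was 0.01 after renormalization. Of 8 myoepithelial markers 1 rose, with means of 3.94 to 4.27 in the cyclin D1 glands and 3.24 and 3.63 in the controls, and a median difference of 0.45, or 0.16 after renormalization. Of 10 adipocyte markers 0 passed limma (0 at an unadjusted p under 0.05), with means of 4.18 to 5.63 in the cyclin D1 glands and 4.63 and 4.67 in the controls. After renormalization the adipocyte median was -0.66, with 2 markers at an unadjusted limma p under 0.05, and 3 of the 10 were lower by percentile in all cyclin D1 glands. Over all 19938 genes these counts were 3736 and 3878. Plasma and B cells, which also use XBP1, gave 0 of 9 (0 at an unadjusted p under 0.05), with means of 2.45 to 2.69 in the cyclin D1 glands and 2.72 and 2.87 in the controls, near the floor. In whole tissue, more cells of a type and more RNA per cell cannot be told apart, and the part of the epithelial markers in the values of Sel1l, Asns and Xbp1 was not tested.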

How the data were processed

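Arrays of 5 glands were analysed, 3 of cyclin D1 glands and 2 of control glands, grouped by sample title; per the design text each was a separate mouse. The authors deposited 1 log2 value per probe set and array. Per the submitters' processing notes, they used Affymetrix Expression Console 1.1 and RMA. The log base was taken from the range of the values, 0.830 to 12.9. The arrays normalized together and the background setting are not given in the sources used here. No probe intensities were used, and precision is limited by the number of arrays.

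The platform annotation gave 1 symbol to 21789 of 35556 probe sets, several to 1621 and none to 12146. The probe set with the highest mean was kept per symbol, which left 19938 genes, with no filter on low values. Groups were compared across all genes with limma 3.58.1 in R 4.3.3 (lmFit, eBayes, 3 residual degrees of freedom), 2-sided, with Benjamini-Hochberg adjustment over all genes and a threshold of 0.05. The script was tested on simulated data. Alternatives were quantile normalization, median centring, leaving out dim genes, averaging the probe sets of each gene, testing all probe sets, a trend or robust prior, array weights, a block for replicate number, and leaving out each array.

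The 10 genes and the 17 lists (186 names, of which 11 were not measured and 7 were matched by an older name) were chosen with earlier results of these data known. Named from each stress-response list are the 3 members with the smallest p. Other list members named, and the olfactory receptor floor, the percentiles and the deciles, were chosen after values were seen. Promoters are RefSeq sequences of GRCm38.p6, found for 9 of the 10 genes.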

Additional observations from a re-analysis of the deposited data

How the results depend on the processing

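Of the 10 genes, 1 was called higher, and the same count was found with median centring, the mean of probe sets, all probe sets and a trend or robust prior. It was 0 after renormalization and with array weights, 3 when dim genes were left out (Asns and Xbp1 beside Sel1l), and 0 to 1 with an array left out. No gene of the 10 was called lower under any of these settings. The median difference of the 10 genes, 0.58, was 0.28 after renormalization, 0.30 when control 1 was also left out, and 0.47 to 0.66 with an array left out. Signs turned for Atf4 and Chac1 without control 1 (ranges with an array left out -0.0022 to 0.33 and -0.29 to 0.12) and without it on the renormalized scale (-0.14 and 0.18), and for Manf on the renormalized scale (-0.68) and there without control 1 (-0.21); the cause was not tested. Settings without a control leave 1, which is assumed to vary like the cyclin D1 arrays. Over all genes, 1072 were higher and 137 lower. These counts were 51 and 21 after renormalization, 622 and 185 with a trend, 263 and 4 with array weights, 555 and 894 renormalized without control 1, and 56 lower when dim genes were left out. With an array left out they ran from 0 to 1365 and from 0 to 1063. With the replicate number as a block, 2 of the 10 were called, Asns at 3.06 and Xbp1 at 1.77. Sel1l was not called there (limma adjusted p = 0.0751), and 1137 genes were higher and 10 lower. Cyclin D1 replicate 3 has no control of its number. The block fit thus takes the difference from replicates 1 and 2, with 1 residual degree of freedom. The numbers do not pair the mice in the labels. Same-numbered arrays deviated from their group means with correlations of -0.03 and 0.13. With 2 controls, their deviations are equal and opposite, so these correlations cannot settle whether mice were paired. Signal close to the floor limits Sel1l, Creld2, Trib3 and Chac1, and also the control values of Asns, Herpud1, Ddit3 and Atf4. Having 2 control mice limits all values.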

Other observations

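Several cell type lists hold values not described above. Of 7 macrophage markers 0 passed limma, with 3 at an unadjusted p under 0.05, and their mean log2 level was 3.46 to 4.48 in the cyclin D1 glands, against 3.06 in each control. Of 6 T cell markers 0 passed (0 at an unadjusted p under 0.05), and their mean was highest on cyclin D1 replicate 2, at 3.53, the array on which Asns also read highest. The means of the other arrays were 2.76 and 2.62 in cyclin D1 glands and 3.05 and 3.09 in controls. The B cell gene Ms4a1 read 4.44 on that same array and 2.41 and 2.17 on the other cyclin D1 arrays, against 2.73 and 3.37 in the controls. It is 1 of 9 plasma and B cell markers, and their mean did not stand out there. That mean was 2.69 on cyclin D1 replicate 2, 2.45 and 2.65 on the other cyclin D1 arrays, and 2.72 and 2.87 in the controls. Of 6 endothelial and 7 fibroblast markers 0 passed (0 and 0 at an unadjusted p under 0.05). The fibroblast mean was 4.81 to 5.46 in cyclin D1 glands and 4.08 and 5.36 in controls, so control 1 stood lowest there. After renormalization the fibroblast median was -0.65, against 0.43 as deposited, with 3 of the 7 at an unadjusted limma p under 0.05. By percentile 3 of the 7 were lower in all cyclin D1 glands. The macrophage median was 0.20 after renormalization, against 1.11, with 2 of the 7 at an unadjusted limma p under 0.05. By percentile 4 of the 7 macrophage markers were higher in all cyclin D1 glands. Over all 19938 genes, 5244 had an unadjusted limma p under 0.05 as deposited and 3736 after renormalization. By percentile, 20.1% of all genes were higher in all cyclin D1 glands and 19.5% were lower.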
